A study of Rattus norvegicus with 6 samples.

Results

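Snord64 and Snord107 are small nucleolar RNAs (snoRNAs) of the imprinted Prader-Willi syndrome (PWS) domain that, unlike their neighbours Snord116 and Snord115, are not arranged as long arrays of repeated copies. They were chosen by gene identifier, with no threshold on a measured value but with earlier results of these data known, and make up 3 of the 32883 genes in the small RNA table. The identifiers ENSRNOG00000061924 and ENSRNOG00000055348 carry clone names in the table (AABR07005711.2 and AABR07005710.1) and are both assigned to Snord64 by the study, and ENSRNOG00000058701 is Snord107. The RefSeq gene table for assembly GRCr8 lists 1 gene named Snord64 and 1 named Snord107, whereas the deposited table, made on Rnor_6.0, splits Snord64 over 2 identifiers. Snord64 is therefore given below by identifier and as the total of both.

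The small RNA libraries came from 6 clonal lines of INS-1(832/13)::mCherry, a rat insulinoma line that serves as a model of the insulin-secreting pancreatic β-cell and here carries an mCherry reporter, with 1 library per line and 7.5 mM glucose in the medium. The 3 control lines (5-9, 2 and 16) lacked the PWS domain on the silent maternal copy and kept the active paternal copy. The 3 PWS lines (3, 19-1 and 19-4) lacked the domain on both copies. The question was what became of the small RNAs of the domain once the paternal copy was also removed. Lines 2 and 16 were derived from line 5-9, the PWS lines were made by a further edit of the same line, and all 6 thus share the maternal deletion, so no line in the comparison has an intact domain on both copies. Lines 19-1 and 19-4 are subclones of a single edited line, and the spread between them may be smaller than that between independently edited lines.

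Box C/D snoRNAs are short nucleolar RNAs named after 2 conserved motifs, box C near the 5′ end and box D near the 3′ end. Most are released from the introns of a host transcript, bind a common set of proteins that includes the methyltransferase fibrillarin, and guide ribose methylation of ribosomal or spliceosomal RNA. The snoRNAs of the PWS domain are released from long transcripts of the Snurf-Snrpn locus, which also has upstream first exons, and these are made from the paternal copy alone. For Snord64 and Snord107 no methylation target is established, and they are classed as orphan snoRNAs. In the RefSeq order of genes they lie between Snurf-Snrpn and the snoRNA genes further along the transcript.

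The primers that the study designed on the 2 snoRNAs are shown because they hold the ends where the motifs lie. Each is written 5′ to 3′. Capitals mark TGATGA, the core of box C, in the forward primers and TCAG, the reverse complement of the box D core CTGA, in the reverse primers.
Snord64 forward primer: aaTGATGAgctgtgtttactg
Snord64 reverse primer: ctTCAGagtaattattttgagc
Snord107 forward primer: aTGATGAcatgggaccttgtc
Snord107 reverse primer 2: attTCAGagtcactctaagctc
Snord107 reverse primer 1: gtgaggcacattgactagat
Both forward primers held TGATGA within their first bases, and reverse primer 1 of Snord107 was the only one of the 3 reverse primers shown without TCAG. As written, TGATGA occurred in 4 of the 137 RT-PCR and RT-ddPCR primers read, all 4 of them forward snoRNA primers, and TCAG, a shorter string, occurred in 21. The study also used a probe for the Snord107 locus in genomic DNA, in which capitals mark the 8 bases shared with the end of the Snord107 forward primer.
Snord107 genomic probe: ACCTTGTCtgaacacaatgatttca
The primers and the probe identify the RNAs described here. No value measured with them is used, apart from the paper's report on Snord107 in PWS lines cited below.

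The libraries held 7373691 to 16480475 recovered reads. Values are given in normalized reads, the reads of a gene divided by a size factor for its library. Of 16 β-cell marker names, 15 had reads, and the summed level of these markers was 1282748 to 2069279 normalized reads in control lines and 1304053 to 1839426 in PWS lines. Mir375 alone was at 657530 to 806138 in control and 558022 to 833397 in PWS lines, so the sum does not show low markers. In lines 5-9, 2, 16, 3, 19-1 and 19-4, Ins1 was at 174, 122, 285, 184, 103 and 88.3. In the same order Ins2 was at 22.7, 10.5, 30.1, 16.0, 6.30 and 0. The α-cell gene Gcg, the δ-cell gene Sst, the acinar genes Prss1, Cpa1 and Cela1 and the fibroblast genes Col1a1 and Col3a1 were at 0 in all 6 libraries. Of the whole lists, 2 of 5 acinar markers had reads, summing to 4.92 to 15.4 normalized reads in control and 2.10 to 6.59 in PWS lines, and 1 of 4 α-cell markers had reads, at up to 0.772 in control lines and 0 in PWS lines. No δ-cell or fibroblast marker found in the table had reads. The summed blood markers (3 of 3 with reads) lay between 43.1 and 77.8 normalized reads, with control lines at 44.3 to 73.2.

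Snord64 was among the well detected snoRNAs of the control lines and was not found in any PWS line. Its total was 1103 normalized reads in control line 5-9 (1120 reads), 953 in line 2 (729 reads) and 1187 in line 16 (1539 reads), and 0 in PWS lines 3, 19-1 and 19-4. The groups did not overlap: all 3388 reads of Snord64 were in control lines. The control mean was 1081 ± 119 normalized reads (SD, n = 3). On the log2(normalized reads + 1) scale the total was lower in PWS lines by a difference of -10.07 ± 0.32 (SE; limma-trend, adjusted p = 3.33e-12). That value depends on the added 1, and the reads themselves set the bound: a count of 0 allows up to 3 reads, here taken over the whole PWS group, so Snord64 was at least 1246-fold lower, or at most 0.0803% of the pooled control level (all control reads over the summed size factors).

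The depth of each PWS library set how much Snord64 could have been missed in it. At the control mean, line 3 would have held 1820.5 reads of Snord64, line 19-1 1029 and line 19-4 820.1, against 0 found in each. The limit of 3 reads corresponds to 0.165% of the control mean in line 3, 0.291% in line 19-1 and 0.366% in line 19-4. The deepest library, line 3, therefore gave the lowest limit. Intervals and limits here cover counting error only. From the reads of such bulk libraries alone, fewer cells making an RNA and less RNA per cell cannot be told apart. By fluorescence in situ hybridization, the paper reports loss of the domain on both copies in most or virtually all cells of the PWS lines.

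Snord107 was lower in abundance in the table and fell as well, but was not at 0 in every PWS line. It was at 204 normalized reads in control line 5-9 (207 reads), 173 in line 2 (132 reads) and 275 in line 16 (356 reads). In the PWS lines it was at 0.594 in line 3 (1 read), 0 in line 19-1 and 1.32 in line 19-4 (1 read). The groups did not overlap, and the lowest control line was 131-fold above the highest PWS line. Control lines averaged 217 ± 52.3 and PWS lines 0.637 ± 0.660 normalized reads (SD, n = 3 each). The difference was -7.11 ± 0.40 on the log2(normalized reads + 1) scale (SE; limma-trend, adjusted p = 7.53e-10).

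The residual Snord107 signal came to 2 reads over the PWS group against 695 in control lines. In the PWS lines the paper found no genomic copy of Snord107 by droplet digital PCR and no expression of it by RT-PCR. Where the 2 reads came from was not tested. Pooled over lines in the same way it was 0.261% of the control level, with an exact 95% Poisson interval of 0.0316% to 0.942%. At the control mean, lines 3, 19-1 and 19-4 would have held 365, 207 and 165 reads of Snord107. The single reads in lines 3 and 19-4 stood at 0.274% and 0.607% of the control mean, and the 0 in line 19-1 allows up to 1.45%. The 3 PWS lines could therefore not be ranked for Snord107 at this depth. Set against Snord64, with 0 reads in PWS and 3388 in control lines, the residual share of Snord107 reads gave p = 0.0291 by Fisher's exact test (two-sided), or 0.11 after Benjamini-Hochberg adjustment over the 7 pairs of small RNAs compared in this way. The test compares pooled reads, covers counting error only and was chosen after the data were seen.

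**Figure D1:**
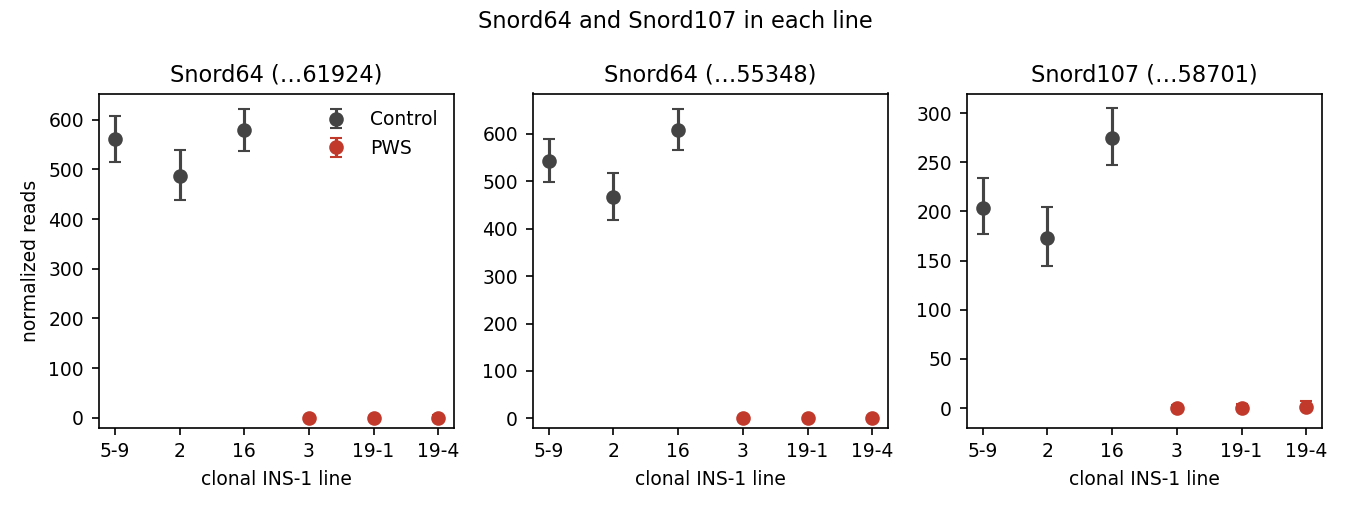
Normalized reads (linear y axes, scaled separately) of the 2 Snord64 identifiers, labelled by their last digits, and of Snord107 in each of the 6 clonal lines (x axes), control lines in grey and PWS lines in red. Bars are exact 95% Poisson intervals of the counts. Control lines sit between 467 and 609 for the Snord64 identifiers and between 173 and 275 for Snord107, and all PWS lines sit at or near 0.

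All 3 identifiers passed the filter of a mean of at least 5 normalized reads, through the control lines alone. All 3 of 3 were called lower in PWS lines at an adjusted p under 0.1, beside 1.28% of the 4292 genes tested (55 genes, the 3 counted among them). Most of the 55 lie in the same deletion: besides the 3, they include 33 Snord116 copies, 8 Snord115 copies and 8 Mir344 genes. No gene was called higher by limma, and 256 of the genes tested had an unadjusted p under 0.05 in either direction. By identifier, ENSRNOG00000061924 differed by -9.08 ± 0.33 and ENSRNOG00000055348 by -9.07 ± 0.33 on the log2(normalized reads + 1) scale (SE; limma-trend, adjusted p = 1.19e-11 for each). On the recovered reads, edgeR's quasi-likelihood test gave an adjusted p of 1.18e-12 for the Snord64 total and 5.47e-11 for Snord107, and DESeq2 gave 6.81e-22 and 3.36e-13. An exact two-sided permutation test over lines gave p = 0.1 for either snoRNA, the smallest that 3 lines against 3 can give. Where nothing places the libraries in separate cultures, these p-values measure the spread between the sequenced clones, which may be partly technical.

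The 2 Snord64 identifiers drew near equal numbers of reads. They were treated as near-identical entries of the same snoRNA and are not independent measurements. ENSRNOG00000061924 was at 560, 486 and 579 normalized reads in control lines 5-9, 2 and 16, a mean of 542 ± 48.9 (SD, n = 3). ENSRNOG00000055348 was at 543, 467 and 609 in the same lines, a mean of 539 ± 71.1 (SD, n = 3). Both were at 0 in the 3 PWS lines, and in both line 16 was highest and line 2 lowest. The share of Snord64 reads given to ENSRNOG00000061924 was 50.8% in line 5-9 (569 of 1120 reads, exact binomial 95% interval 47.8% to 53.8%), 51.0% in line 2 (372 of 729 reads, 47.3% to 54.7%) and 48.7% in line 16 (750 of 1539 reads, 46.2% to 51.3%). Over the 3 lines it was 49.9% (48.2% to 51.6%), so every interval contained an even split. The authors counted the libraries in 2 ways, adding a read that lies in several genes to each or leaving it out, and the reads of all 3 identifiers were the same in both tables. How the alignment chose between the 2 places for a read was not tested, and the levels of the single identifiers are uncertain in a way that their total is not.

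Within the control group the 2 snoRNAs kept the same order of lines, 16 above 5-9 above 2. For Snord64 the lines stood at 110%, 102% and 88.1% of the control mean in that order. For Snord107 they stood at 127%, 93.9% and 79.5%. The range was thus wider for Snord107, with a highest-to-lowest ratio of 1.59 against 1.25 for Snord64. The coefficient of variation was 24.1% for Snord107 and 11.0% for Snord64, while the spread that counting alone gives averaged 6.57% and 2.98%.

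Not all neighbours in this order were separated by their counting intervals. For Snord64, line 2 (885 to 1025 normalized reads) lay below lines 5-9 (1039 to 1170) and 16 (1129 to 1248), whose intervals overlapped. For Snord107, line 16 (247 to 305) lay above lines 5-9 (177 to 234) and 2 (144 to 205), whose intervals overlapped. With 1 library per line, differences between lines and between library preparations cannot be told apart. Line 2 was also the shallowest control library, at 7634142 reads, and line 16 the deepest, at 13872493 reads. The part of depth in the order was not tested.

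**Figure D2:**
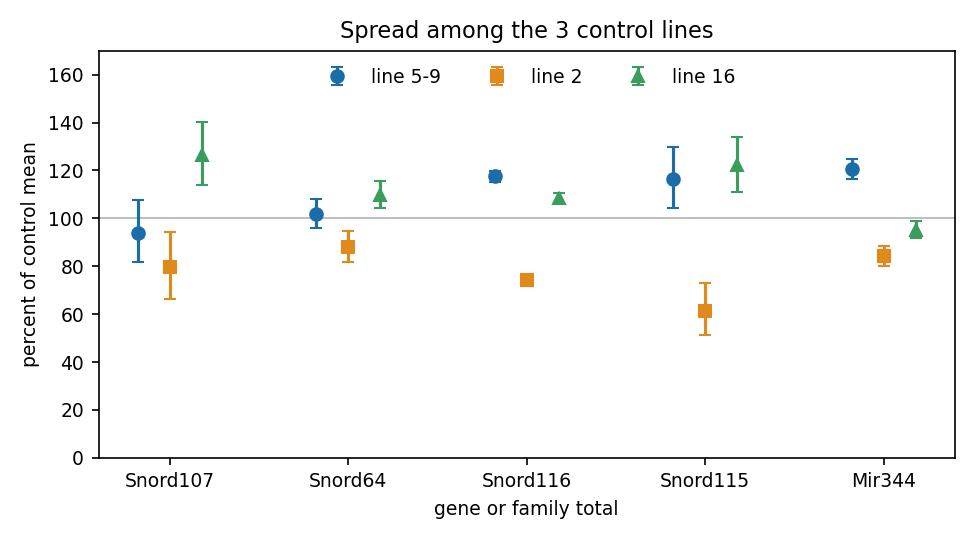
Level of Snord64, Snord107, Snord116, Snord115 and Mir344 in control lines 5-9, 2 and 16, each as a percentage of its own control mean, with 95% Poisson intervals of the counts as bars. Line 2 is lowest in all 5, from 61.4% for Snord115 to 88.1% for Snord64, and line 16 is highest for Snord64, Snord107 and Snord115.

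The other small RNAs of the domain, all in the same deletion, put line 2 lowest too. Snord116, an array of snoRNA copies, stood at 118%, 74.2% and 108% of its control mean in lines 5-9, 2 and 16. Snord115, the neighbouring array, stood at 116%, 61.4% and 122%, and the microRNA family Mir344 at 120%, 84.3% and 95.3%. Line 5-9 was thus highest for Snord116 and Mir344, and line 16 for the rest. The summed level of the box C/D snoRNAs outside the domain did not share the low value of line 2: it was 168810 normalized reads in line 5-9, 185064 in line 2 and 183274 in line 16.

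**Figure D3:**
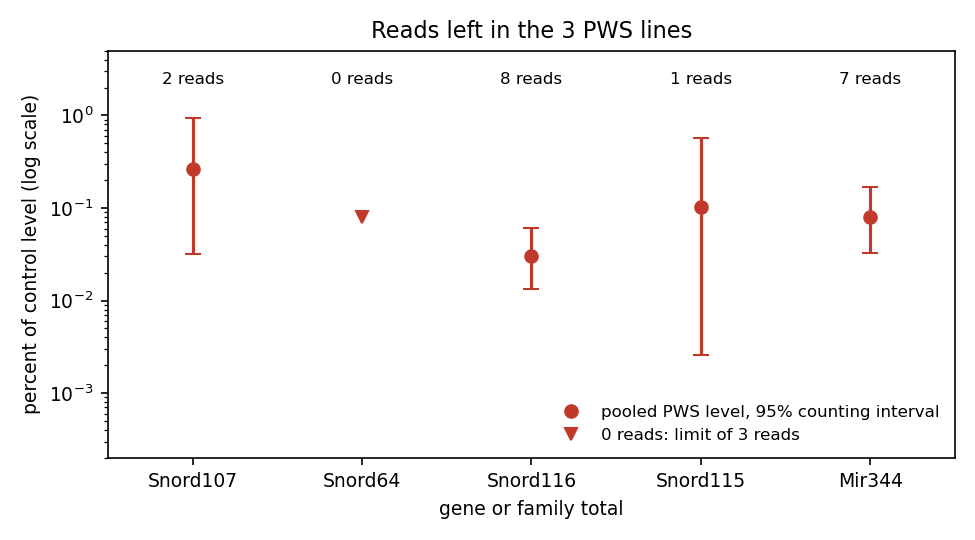
Level in PWS lines as a percentage of the control level (y axis, log scale) for Snord107, Snord64, Snord116, Snord115 and Mir344, from reads pooled over the 3 lines of each group. Points have exact 95% Poisson intervals as bars, and the triangle is the 3-read limit of Snord64. Snord107 is at 0.261%, the limit of Snord64 is 0.0803%, and the interval of Snord107 overlaps those of the 3 families.

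The PWS lines held few reads of these families as well. Snord116 held 8 reads in PWS lines, 0.0306% of the control level (0.0132% to 0.0603%). Snord115 held 1 read, 0.102% (0.00258% to 0.568%), and Mir344 held 7 reads, 0.0809% (0.0325% to 0.167%). The Snord107 value of 0.261% was the highest of these, on 2 reads. By the same Fisher's exact test Snord107 against Snord116 gave p = 0.0315 (adjusted 0.11), against Mir344 0.163 (0.285) and against Snord115 0.585 (0.607), and none of the 7 pairs passed 0.1 after adjustment.

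Ratios of reads within a library do not depend on its size factor. The reads of Snord64 and Snord107 stood at 5.41 to 1 in line 5-9 (95% interval 4.66 to 6.31), 5.52 to 1 in line 2 (4.58 to 6.70) and 4.32 to 1 in line 16 (3.85 to 4.86). The ratio averaged 5.09 ± 0.663 (SD, n = 3), and the intervals of the 3 lines overlapped. It is a ratio of reads and is not divided by the lengths of the RNAs, since no lengths on the build of the table were used, so it does not rank the 2 snoRNAs in molecules. Between lines the ratio varied 1.28-fold. The ratio of Snord64 to Snord116 varied 1.37-fold, that to Mir344 1.36-fold and that to Snord115 1.64-fold. For Snord107 the ratios to Snord116, Snord115 and Mir344 varied 1.46-fold, 1.61-fold and 1.70-fold. Either snoRNA thus varied least against the other, with no test of the difference between these 7 ratios over 3 lines.

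Over the 6 libraries, the genes most like Snord64 in the domain were 3 Snord116 copies, ENSRNOG00000060200, ENSRNOG00000059451 and ENSRNOG00000053918, with Pearson's r of 0.9998, 0.9998 and 0.9998 on the log2(normalized reads + 1) scale. Like Snord64, all 3 were at 0 in every PWS line. Those most like Snord107 were rno-mir-344a-1 (r = 0.998) and the Snord116 copies ENSRNOG00000054305 (0.998) and ENSRNOG00000060158 (0.998), each with a read in line 19-4. Outside the domain the same 3 genes came nearest to both: Adgrg1, an adhesion G protein-coupled receptor (0.989 to Snord64 and 0.981 to Snord107), Arih1, a ubiquitin ligase (0.977 and 0.977), and a U6 spliceosomal RNA gene, ENSRNOG00000053287 (0.970 and 0.974). None of these was called: Adgrg1, the closest, was at 11.8, 10.5 and 10.0 normalized reads in lines 5-9, 2 and 16 and at 5.35, 5.25 and 5.27 in lines 3, 19-1 and 19-4, with an adjusted p of 0.826 (limma-trend). The libraries share the genotype contrast, which dominates r in so few points, and r is given as a description.

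The host transcript and the protein-coding genes of the domain gave few reads in libraries selected for small RNAs. Of 8 names listed, 6 were in the table, 4 had reads and 0 passed the filter. Snurf, the upstream reading frame of the bicistronic Snurf-Snrpn transcript, had 2, 4 and 8 reads in lines 5-9, 2 and 16, and Snrpn, which encodes a spliceosomal protein, had 1, 2 and 4. Mkrn3, a zinc finger ubiquitin ligase, had 2, 2 and 0 reads, and Peg12 had 0, 1 and 1. All 4 were at 0 in the 3 PWS lines, and Ndn and Magel2 were at 0 in all 6. Snurf and Snrpn share transcribed sequence, and when reads lying in several genes were left out Snurf had 7 reads in all and Snrpn 0. These counts were below the filter of the main test, so no test of them is given. They are too few to resolve how the host transcript varied between control lines.

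The start of Snurf is shown because both snoRNAs lie downstream of it in the same transcribed locus, although transcripts of the locus can also begin at upstream exons. The stretch runs from 250 bases before to 50 bases after the start of Snurf in RefSeq (GRCr8, minus strand of the genome, written 5′ to 3′ along the transcript), with each CG in capitals, the dinucleotide whose methylation marks the silent maternal copy.
Snurf promoter: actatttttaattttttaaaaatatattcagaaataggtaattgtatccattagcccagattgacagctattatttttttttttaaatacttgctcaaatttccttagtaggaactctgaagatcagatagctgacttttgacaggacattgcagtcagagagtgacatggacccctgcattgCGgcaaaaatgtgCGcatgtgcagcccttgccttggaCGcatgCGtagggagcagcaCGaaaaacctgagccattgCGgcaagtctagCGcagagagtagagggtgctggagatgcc
It held 7 CG, all toward its 3′ end, at a GC content of 42.3%. Of 33469 RefSeq promoters of the same length, 94.5% held a CG and 51.4% held at least as many, and their median GC content was 51.7%. Methylation was not measured in these libraries.

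Genes flanking the deletion were not called lower with the snoRNAs. Of 11 listed, all were in the table, 9 had reads and 2 passed the filter. Ube3a, a ubiquitin ligase gene next to the domain, was at 9.53 ± 0.830 normalized reads in control and 15.0 ± 4.08 in PWS lines (SD, n = 3 each; limma-trend log2 difference 0.57 ± 0.38 SE, adjusted p = 0.862). Herc2, another ubiquitin ligase gene, was at 10.8 ± 2.67 and 10.5 ± 3.67 (adjusted p = 0.984). The others were below the filter and had no test: over the 3 control and the 3 PWS lines, Tubgcp5 had 10 and 23 reads, Cyfip1 8 and 10, Nipa2 11 and 7, and Nipa1 1 and 4. Gabra5 had 0 and 1 reads and Gabrg3 had 1 and 0. These reads are fragments of longer RNAs and give no measure of the messages.

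Snord64 and Snord107 were set against the box C/D snoRNAs outside the domain, which use the same proteins. Of 103 such genes by symbol, 99 had reads and 94 passed the filter. None of the 94 was called by limma, by edgeR or by DESeq2, and 3 of the 94 had an unadjusted p under 0.05 by limma. Over all genes tested, 1.28% were called lower by limma, most of them in the domain. The pair lies in the deletion, so its calls were fixed by the design and are no result of this comparison. The log2 differences of the 94 ran from -0.90 to 0.64 with a median of 0.023, beside a median of 0.0048 over all genes tested. Their smallest adjusted p was 0.826 (limma-trend). In the 82 with a control mean of at least 100 normalized reads, no PWS line was at 0, the lowest count in any PWS library was 45 reads, and the log2 differences ran from -0.53 to 0.61. The summed level of these snoRNAs was 179049 ± 8913 normalized reads in control and 184689 ± 32332 in PWS lines (SD, n = 3 each; exact two-sided permutation p = 0.9), with line 19-4 highest at 220887.

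**Figure D4:**
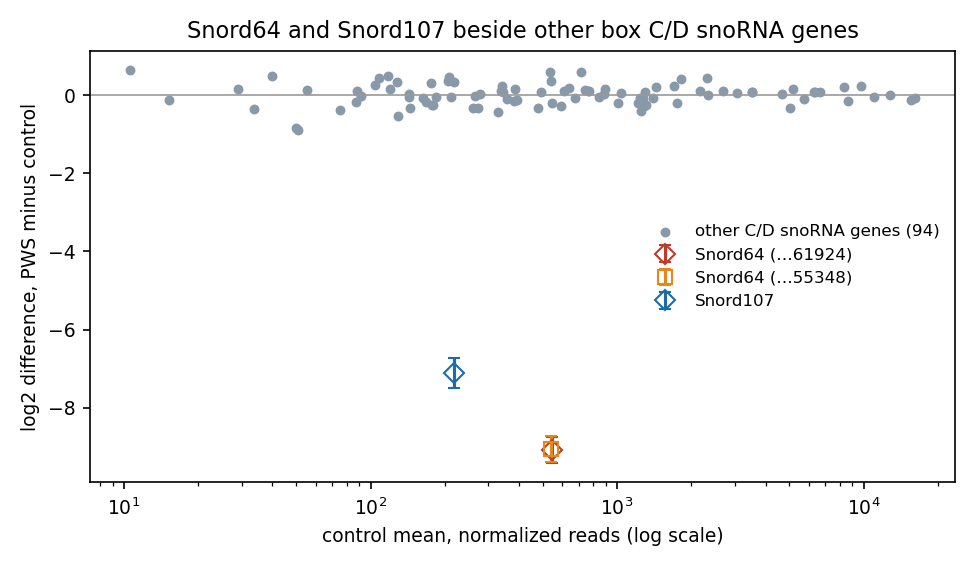
Log2 difference, PWS minus control, on the log2(normalized reads + 1) scale (y axis) against the control mean in normalized reads (x axis, log scale) for 94 box C/D snoRNA genes outside the domain in grey and for the 2 Snord64 identifiers and Snord107, whose bars are the SE of limma. The other snoRNA genes lie between -0.90 and 0.64, and the Snord64 identifiers and Snord107 lie at -9.08, -9.07 and -7.11.

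The most abundant of these snoRNAs kept at least 10353 reads in every PWS line, and none passed the test (limma-trend, adjusted p of at least 0.950). Snord110 was at 16219 ± 1272 normalized reads in control and 15822 ± 4716 in PWS lines, Snord57 at 15570.0 ± 1074 and 14414 ± 1588, and SNORD81 at 12757 ± 1121 and 12860.3 ± 886 (SD, n = 3 each). The snoRNAs nearest to Snord64 in control reads were Snord69, SNORD33 and Snord49b above it and SNORD82, Snord60 and Snord38a below it. From control to PWS lines they went from 1217 to 1071, 1238 to 1176, 1246 to 981, 1035 to 1088, 1006 to 886 and 896 to 971 normalized reads. Those nearest to Snord107 were SNORD73, SNORD22, Snord100, Snord88a, Snord35a and another SNORD73 gene, with log2 differences between -0.32 and 0.46. None of these 12 was called, with an adjusted p of at least 0.872 (limma-trend). When reads lying in several genes were left out, this SNORD33 gene and Snord35a had 0 reads in both groups, so their levels rest on shared reads.

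The spread of Snord64 and Snord107 between control lines lay within that of other box C/D snoRNAs. The coefficient of variation over lines 5-9, 2 and 16 had a median of 13.5% in the 94 genes, with quartiles of 7.88% and 21.4%. At 11.0%, Snord64 was below the median, and 36 of the 94 varied less. At 24.1%, Snord107 was above the upper quartile, and 72 of the 94 varied less.

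The proteins that assemble with box C/D snoRNAs were read only as fragments. Of 16 names, 14 were in the table, all 14 had reads, 4 passed the filter and 0 were called by limma, edgeR or DESeq2, with 0 at an unadjusted p under 0.05 by limma. The median log2 difference of the 4 was 0.32. Nolc1, a nucleolar phosphoprotein that associates with snoRNPs, was at 11.0 ± 4.12 normalized reads in control and 16.4 ± 3.06 in PWS lines, and Nop56, a core protein of the box C/D particle, at 10.9 ± 1.30 and 12.9 ± 6.12 (SD, n = 3 each). Rrp9, which binds the U3 snoRNA, was at 8.81 and 10.4. None of the 3 passed the test, with adjusted p-values of at least 0.865 (limma-trend).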

How the data were processed

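The authors divided the counts of each gene by a DESeq2 size factor for the library, and the deposited values are this signal, called normalized reads here. Per the submitters' processing notes, UMI-tools 1.0.0, cutadapt 1.18, Bowtie2 2.3.4.2, HTSeq 0.11.2, DESeq2 and featureCounts were named, with Rnor_6.0 as the build, and the library kit, which adds molecular identifiers, was adapted for RNAs under 200 nt. The deposited tables, 1 adding a read that lies in several genes to each and 1 leaving it out, also hold the authors' means, log2 fold changes, standard errors, p-values and adjusted p-values, which were not used. The first table was the main one. Every value was a whole multiple of the smallest step of its column (100% within a tolerance of 0.001), which gave the reads.

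Genotype was tested by limma-trend (limma 3.58.1, R 4.3.3) after adding 1 and taking log2, for genes that averaged 5 or more in the 6 libraries, with the Snord64 total as an added entry, Benjamini-Hochberg adjustment and a threshold of 0.1. This scale understates changes of low genes. edgeR 4.0.16 and DESeq2 1.42.0 were run on the recovered reads. The test was checked on simulated data. Single values were compared by exact permutation over lines.

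The members and lists were chosen with earlier results of these data known. Named genes were the members, the domain families, listed domain and flanking genes with a read, otherwise the 3 most abundant of a list, the 3 most alike genes inside and outside the domain, and the 3 nearest snoRNAs above and below each member in control level. An item of the flanking list is not reported here. The marker lists, for β-, α- and δ-cells, acinar cells, fibroblasts and blood, identify fragments only.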

Additional observations from a re-analysis of the deposited data

How the results depend on the processing

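Under all 19 alternatives run for it, Snord64 stayed lower in PWS lines and past the threshold, with log2 differences from -13.19 to -7.76 and adjusted p from 6.51e-170 to 5.78e-08 over limma, edgeR and DESeq2. Snord107 did likewise under its 19, from -8.52 to -5.28 and from 1.57e-62 to 1.12e-06. The 3 identifiers were called in each, and the genes called lower numbered 41 to 63, or 44 to 56 with a line left out. Genes called higher, 0 in the report, numbered 1 with a filter at a mean of 1, 3 with no filter and 2 without PWS line 3, and 0 under the other alternatives. Adding a replicate block gave 56 called genes, with an adjusted p of 7.68e-14 for Snord64 and 1.16e-11 for Snord107 (limma-trend), and no call on the members changed. The labels do not state that the replicate numbers pair the lines, and whether they do was not settled. Deviations of same-numbered lines correlated at 0.112, 0.0559 and 0.0183 over 4292 genes, and 4 of 6 libraries correlated best with their own number. With the block, 301 genes had an unadjusted p under 0.05 by limma-trend, against 256 without it. Averaging lines 19-1 and 19-4 left 54 genes called and the 3 identifiers among them. Leaving out a line moved the control mean of Snord64 between 1028 and 1145, that of Snord107 between 188 and 239 normalized reads, and the Snord107 residual between 0.168% and 0.362%. That residual rests on 2 reads, so depth limits any ranking of PWS lines.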
